A study of Mus musculus with 15 samples.

Results

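NRL, the Maf-family transcription factor that sets rod photoreceptor identity, was mapped over genes of the ubiquitin and proteasome system in developing mouse retina. The genes were chosen by name alone: a peak belonged if the gene symbol the authors gave it began with Psma to Psmg, Ube2, Ube3, Uba, Usp, Cul or Fbxo (for all but Ube2 and Ube3 followed by a number). This took 114 of the 8996 peaks, next to 103 of 6860 gene symbols. They comprised 31 peaks of 29 proteasome genes (14 peaks of 13 genes of the 20S core, 14 of 13 genes of the 19S cap and 3 of regulators and assembly chaperones), 4 of Uba genes, 17 of 16 Ube2 genes, 2 of Ube3 genes, 35 of 30 Usp genes, 6 of Cul genes and 19 of 16 Fbxo genes. Symbols are not functions: Usp6nl encodes a Rab GTPase-activating protein, and Uba3 and Ube2f encode enzymes for NEDD8. A symbol here means the gene nearest to the peak in the authors' annotation, which need not be a gene that NRL regulates.

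Proteins are marked for destruction by chains of ubiquitin. An activating enzyme (E1, the Uba genes) passes ubiquitin to a conjugating enzyme (E2, the Ube2 genes), and a ligase (E3) attaches it to the target. Cullins are the scaffolds of a large class of E3 ligases, F-box proteins (Fbxo) choose targets for the cullin-based SCF ligases, and the Usp proteases take ubiquitin off again. The 26S proteasome then unfolds the protein in its 19S cap and cuts it in its 20S core. Rods turn over large amounts of protein, and every cell type of the retina expresses this machinery.

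Retinas of C57BL/6J mice with no treatment were taken 2, 4, 10 or 28 days after birth (ages called P2, P4, P10 and P28), and 250000 dissociated cells per experiment were probed by CUT&RUN, in which antibody-bound chromatin is cut free and sequenced. Values exist for 2 libraries per age (replicates 3 and 4, but 1 and 4 at P10), out of 15 labelled libraries; the other 7 were not analysed here. The labels do not say whether libraries came from separate animals, so p-values measure the spread between libraries. Retina is a mixture of cells: fewer rods and less NRL per rod cannot be told apart, and no control-antibody column was used here.

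Signal is given as RPKM (reads divided by the peak's length in kilobases and by the authors' scale for the library), rebuilt from whole reads. Reads in peaks ran from 49430 to 227692 per library, and both P10 libraries had the most. Across the 114 peaks the median count was 9.5 reads per peak and library, and 11 of 912 values were 0, so single small peaks rest on few reads. Peaks lay at all 7 rod markers examined (median RPKM by age 4.06, 12.4, 59.3 and 28.3), at 1 of 4 cone, 1 of 4 bipolar, 0 of 4 Müller glia and 0 of 4 microglia markers. The median change over all peaks was 0.48, 0.73 and -0.69 on the log2 scale for P4 against P2, P10 against P4 and P28 against P10, and 0.57 for P28 against P2. Changes are therefore given as measured and also with the library's own median over all peaks subtracted, called centred here. Every change is a difference of log2(RPKM + 1) with its SE, and every adjusted p is limma's, adjusted over all 8996 peaks by the Benjamini-Hochberg method. Peaks under 0.05 are called. P4 replicate 4 was higher than replicate 3 at 97 of the 114 peaks.

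To show what lies under these peaks, the following stretches give the bases upstream of a RefSeq start that the peak covers, in GRCm38.p6, on the gene's strand. Psmb5, Psmb6 and Psmc6 are the 3 proteasome genes with a match in those bases to TGACNNNGC, the core of the antioxidant response element, which Cap'n'collar and Maf bZIP dimers bind. Psmd2 holds an ETS match, and Cul5 and Fbxo27 are the promoters shown whose peaks rose from P4 to P10. Capitals mark matches to the 7 motifs searched.
Psmb5, chr14:54617996-54618245, minus strand: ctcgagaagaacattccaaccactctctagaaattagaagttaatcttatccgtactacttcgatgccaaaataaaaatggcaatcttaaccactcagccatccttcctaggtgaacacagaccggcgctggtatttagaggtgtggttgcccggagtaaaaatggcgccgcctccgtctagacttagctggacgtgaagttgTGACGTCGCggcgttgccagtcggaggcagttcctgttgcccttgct
Psmb6, chr11:70525230-70525356, plus strand: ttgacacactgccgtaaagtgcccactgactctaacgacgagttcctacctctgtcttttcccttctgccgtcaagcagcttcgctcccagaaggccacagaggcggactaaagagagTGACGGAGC
Psmc6, chr14:45329595-45329823, plus strand: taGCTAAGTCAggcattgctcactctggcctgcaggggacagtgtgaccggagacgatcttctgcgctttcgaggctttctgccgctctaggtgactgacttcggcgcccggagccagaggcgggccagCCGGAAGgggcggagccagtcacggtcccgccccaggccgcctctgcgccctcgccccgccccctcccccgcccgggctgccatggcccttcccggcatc
Psmd2, chr16:20651520-20651651, plus strand: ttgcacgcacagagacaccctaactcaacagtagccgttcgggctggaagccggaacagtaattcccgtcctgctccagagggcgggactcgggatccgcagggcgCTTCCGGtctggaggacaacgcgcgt
Cul5, chr9:53667508-53667745, minus strand: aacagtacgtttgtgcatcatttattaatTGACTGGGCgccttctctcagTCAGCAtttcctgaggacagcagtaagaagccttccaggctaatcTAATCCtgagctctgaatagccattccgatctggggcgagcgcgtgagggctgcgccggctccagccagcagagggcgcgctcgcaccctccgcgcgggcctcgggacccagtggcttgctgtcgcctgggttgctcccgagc
Fbxo27, chr7:28692631-28692848, plus strand: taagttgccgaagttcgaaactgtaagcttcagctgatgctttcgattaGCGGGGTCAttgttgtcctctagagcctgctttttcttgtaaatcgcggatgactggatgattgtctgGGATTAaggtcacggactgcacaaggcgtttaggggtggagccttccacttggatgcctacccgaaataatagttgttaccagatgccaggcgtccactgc
In Cul5 the capitals are, in order, the antioxidant core, a Maf motif and a CRX match; in Fbxo27 they are the antioxidant core and a CRX match, both on the opposite strand.

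The motifs were searched on both strands over whole RefSeq windows, from 250 bases before to 50 after the start, for 66 windows of 60 member genes that a peak overlapped. The Maf motif TGCTGA, an arm of the Maf recognition element, was in 13.6% of them, against 15.9% of the 4297 windows with any NRL peak and 18.1% of all 21263 windows. TGACNNNGC was in 16.7%, against 16.9% and 13.0%. The ETS motif CCGGAAG was in 34.8%, against 24.7% and 11.6%, and the NF-Y motif CCAAT in 28.8%, against 51.4% and 38.2%. The CRX motif TAATCC was in 12.1%, against 6.54% and 6.42%, the AP-1 type motif TGANTCA in 6.06%, against 3.91% and 6.99%, and TGACGTCA, the cyclic AMP element, in 1.52%, against 5.19% and 2.23%. TGANTCA, TGACNNNGC and TGACGTCA share their first bases and can overlap. In the 24 proteasome windows the Maf motif was in 8.33%, TGACNNNGC in 16.7%, the ETS motif in 33.3%, CCAAT in 20.8% and TAATCC in 12.5%. These shares describe letters in a window and were not tested.

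NRL peaks at these genes lay mostly at the gene start. Of the 114 peaks, 87 (76.3%, Wilson 95% interval 67.7 to 83.2) were within 1 kb of a start, called promoter peaks here, against 56.8% (55.7 to 57.8) of all peaks. Among proteasome peaks it was 27 of 31 (87.1%), and all 27 overlapped the start itself. Among Usp peaks it was 23 of 35 (65.7%), and at ribosomal protein genes, another set of housekeeping genes, 53 of 66 (80.3%). The 4 proteasome peaks elsewhere were in an intron of Psmb7, 1376 bp downstream of the Psmc2 start in the authors' annotation, 4.688 kb upstream of Psmd1 and 127.5 kb from Psmd7. The Psmc2 peak nevertheless covers a Psmc2 start in the RefSeq table, so its window is among the proteasome windows searched for motifs, while in the counts by distance it stands beyond 1 kb. At 7 of the 87 promoter peaks a different protein-coding gene started within 1 kb: Cnot9 beside Usp37, Fbxo2 beside Fbxo44, Pcid2 beside Cul4a, Mrpl32 beside Psma2, Rnf31 beside Psme2, Wdr53 beside Fbxo45 and Tbp beside Psmb1. At those starts the peak cannot be given to either gene.

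More of these genes carried a peak than protein-coding genes did in general, at every age. Of the 199 protein-coding genes that fit the rule, 18 (9.05%) had a peak of the P2 list within 50 kb, against 4.43% of all 21900. The counts were 43 (21.6% against 11.1%) in the P4 list, 88 (44.2% against 23.2%) at P10 and 54 (27.1% against 13.3%) at P28. The authors deposited 1 list per age, so these shares have no replicate error, and they were not tested. The 20S core was the class with the highest share among those with more than 3 genes in the P10 list, with 12 of 19 genes (63.2%). Limited to the 1221 strongest peaks of each list, the counts were 16 at P4 (8.04%, against 4.41% of all genes), 12 at P10 (6.03% against 4.44%) and 16 at P28 (8.04% against 4.76%), so the higher counts at later ages went with longer lists.

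**Figure D1:**
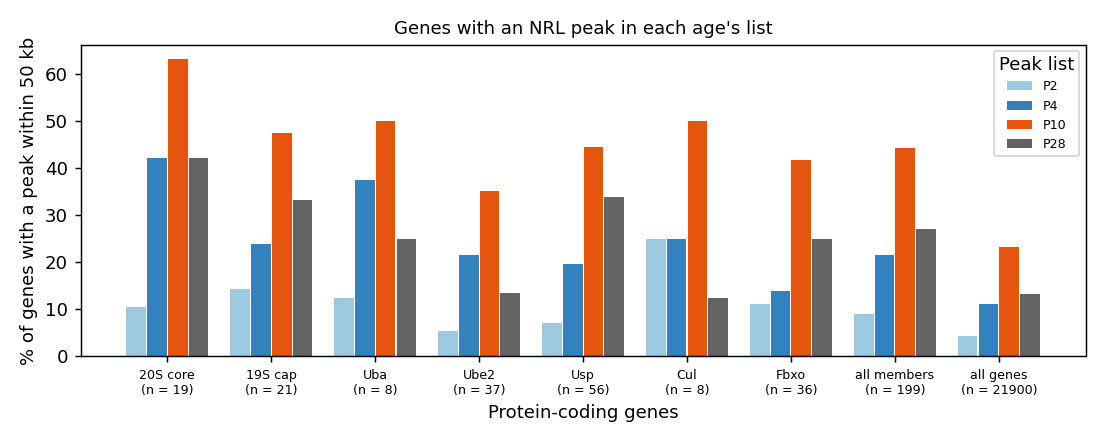
Percentage of protein-coding genes (vertical axis) with an NRL peak within 50 kb in each age's deposited list, by gene class (horizontal axis, number of genes below each class). Bars start at 0 and there is 1 list per age; the members as a group run from 9.05% at P2 to 44.2% at P10, above all genes (4.43% to 23.2%).

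Of the 114 peaks, 19 (16.7%, against 13.5% of all peaks) overlapped the P2 list, 44 (38.6%, against 35.0%) the P4 list, 103 (90.4%, against 83.2%) the P10 list and 55 (48.2%, against 38.6%) the P28 list. Present in all 4 lists were 11 peaks (9.65%, against 7.41%), at Psmb5, Psmc4, Psmd8, Ube2c, Ube2s, Usp2, Usp22, Usp36, Fbxo2, Fbxo33 and Fbxo38. Of the rest, 39 (34.2%, against 41.9%) were in the P10 list alone. A further 7 (6.14%, against 8.7%) were in the P28 list alone, at Psma4, Usp3, Usp12, Usp14, Usp21, Cul2 and Fbxo28. A peak found in no other age's list was called at that age only, which favours high values there. Its higher signal at that age is therefore not independent of how the peak was found.

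The median over proteasome peaks of the mean RPKM of the 8 libraries was 3.34, against 4.05 for all peaks, and the means ran from 1.66 to 11.9. By age, the median was 2.13, 2.96, 4.42 and 3.89 RPKM from P2 to P28, against 2.17, 3.51, 6.27 and 3.81 for all peaks. Age means were highest at P10 for 19 of the 31 peaks, at P28 for 9 and at P4 for 3, and at P2 for 0. The same count was not made over all peaks, whose median was also highest at P10. The P10 list was overlapped by 90.3% of the proteasome peaks and 83.2% of all peaks, so this count does not set proteasome peaks apart.

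In the 20S core, the alpha ring genes Psma1, Psma2, Psma3, Psma4 and Psma5, whose products gate the entrance of the barrel, had means over all libraries of 2.94, 2.91, 3.13, 3.34 and 2.64 RPKM. None of their changes passed the test in any comparison. Psma3 shows the spread between libraries, with 0.388 and 4.37 RPKM in the P4 libraries and 5.21 and 2.00 in the P28 libraries. Its values at those 2 ages overlap.

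The beta ring holds the cutting subunits. Psmb5, which carries the chymotrypsin-like activity, had the highest signal of the core and was in all 4 lists. It had 6.92 and 10.1 RPKM in the P2 libraries, 6.05 and 8.89 in those of P4, 10.1 and 8.0 in those of P10 and 11.3 and 14.1 in those of P28. Both P28 libraries lie above the other 6, but no comparison passed the test (P28 against P10, change 0.45 ± 0.53 SE, adjusted p = 0.56 by limma). Psmb6 and Psmb7, for the caspase-like and trypsin-like activities, had means of 4.14 and 4.05 RPKM. Psmb1 had 2 peaks (3.98 and 3.79), and the scaffolding subunits Psmb2, Psmb3 and Psmb4 had 3.92, 5.50 and 2.59. Psmb8, the inducible subunit of the immunoproteasome, had 2.56 and 0.645 RPKM in the P2 libraries, 2.58 and 4.84 in those of P4, 10.7 and 9.73 in those of P10 and 5.78 and 5.55 in those of P28. Its P10 and P28 libraries are all above its P2 and P4 libraries, and the change from P2 to P28 (1.46 ± 0.51) did not pass (adjusted p = 0.0582). It passed without P2 replicate 3 (2.02, adjusted p = 0.0262) or without either P4 library (0.0372 and 0.0386).

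In the 19S cap, Psmc2, an ATPase of the ring that threads protein into the core, had the highest proteasome signal. It had 4.91 and 4.12 RPKM in the P2 libraries, 3.30 and 16.1 in those of P4, 23.9 and 22.1 in those of P10 and 10.1 and 10.6 in those of P28. The P10 libraries stand above all others, but the P4 libraries lie far apart, and the rise from P4 to P10 (1.49 ± 0.59) did not pass (adjusted p = 0.0789). Without P4 replicate 4, the higher P4 library, it did (2.48, adjusted p = 0.00212). The other ATPase genes were Psmc4 (mean 6.06) and Psmc6 (2.27). Among the non-ATPase subunits Psmd3 and Psmd8 were high (7.64 and 6.45), and Psmd2, Psmd4, Psmd5, Psmd6, Psmd7, Psmd11 and Psmd12 ran from 1.66 at Psmd7 to 3.76 at Psmd12. Psmd4 encodes a ubiquitin receptor of the cap. Psmd1, a large scaffold subunit, had a promoter peak (2.55) and the peak 4.688 kb upstream (4.08).

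**Figure D2:**
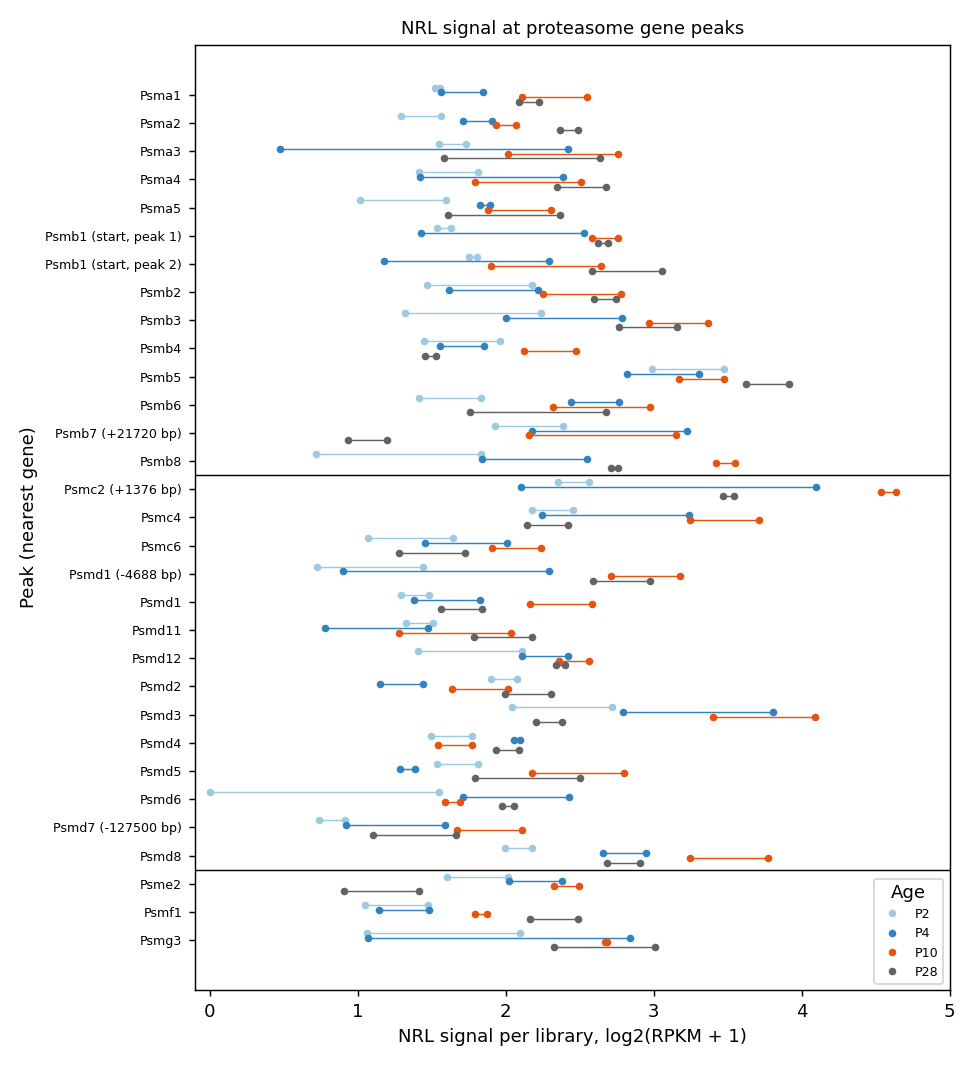
NRL signal of each library, log2(RPKM + 1) on the horizontal axis, at the 31 proteasome gene peaks, with the 20S core on top, the 19S cap in the middle and regulators below. Points of 1 colour are the 2 libraries of an age, joined by a line; Psmc2 at P10 (23.9 and 22.1 RPKM) is the highest, and the joined P4 points are often far apart.

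Proteasome peaks gave 3 calls in all. In the tests of P4 against P2 and of P10 against P4, 0 of 31 passed, where 0.0% of all peaks passed in the first test and 15.6% rose in the second. At an unadjusted limma p under 0.05, a looser threshold than that of those shares, there were 1 and 4 of the 31. Over all peaks 1365 and 3143 of 8996 passed that looser threshold, a larger share in both tests. From P10 to P28, 2 (6.45%) fell and 0 rose, against 20.7% and 1.29% of all peaks. At chr2:38621841-38622200 in the Psmb7 intron the P10 libraries had 7.88 and 3.47 RPKM and the P28 libraries 1.29 and 0.910, a change of -1.59 ± 0.50 (adjusted p = 0.0268). At the start of Psme2, a subunit of the PA28 activator that opens the core, values went from 4.65 and 4.01 to 1.66 and 0.878 (-1.25 ± 0.46, adjusted p = 0.05, just under the threshold). Centred, neither passed (adjusted p = 0.137 and 0.288). The Psmb7 call also ended without P10 replicate 1 (0.319), P28 replicate 3 (0.0634) or P28 replicate 4 (0.134), and the Psme2 call without any of the 4 P10 and P28 libraries (0.0898 to 0.308). Neither gene had libraries of the 2 ages that overlapped.

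From P2 to P28, 1 of 31 (3.23%, against 9.64% of all peaks) rose, the peak upstream of Psmd1 at chr1:86059407-86059699. It had 1.72 and 0.649 RPKM in the P2 libraries, 0.867 and 3.90 in those of P4, 8.07 and 5.54 in those of P10 and 6.87 and 5.03 in those of P28 (1.70 ± 0.51, adjusted p = 0.0308). The P10 and P28 libraries are all higher than the P2 and P4 libraries. The call ended with centring (adjusted p = 0.117), without P2 replicate 4 (0.194) and without P28 replicate 3 (0.117). The regulators Psmf1, which encodes the inhibitor PI31, and Psmg3, an assembly chaperone, had means of 2.38 and 4.19 RPKM and passed in no comparison.

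Read shares give a view that does not depend on the library scale. Of all reads in promoter peaks, the 13 promoter peaks of the 20S core took 0.250 and 0.291% in the P2 libraries and 0.231 and 0.205% in those of P4. They took 0.191 and 0.183% in those of P10 and 0.300 and 0.309% in those of P28. The P10 libraries are the lowest and the P28 libraries the highest, on 130 and 85 reads at P2 and 204 and 189 at P28. The 11 promoter peaks of the 19S cap took 0.233 and 0.274%, 0.241 and 0.220%, 0.194 and 0.208%, and 0.200 and 0.211% at the same ages, with P10 and P28 overlapping. All 87 member promoter peaks took 1.92 and 1.84% at P2 and 1.80 and 1.69% at P4. At P10 they took 1.52 and 1.57%, the lowest, and at P28 1.76 and 1.66%. For ribosomal protein promoters the P10 shares were 1.2 and 1.17% and the P28 shares 1.26 and 1.2%. These shares are a description, with no test.

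**Figure D3:**
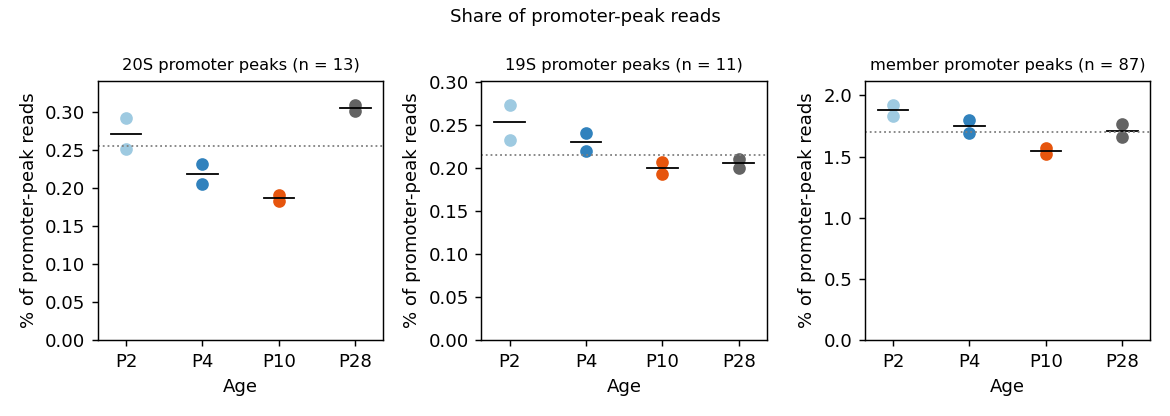
Share of all promoter-peak reads (vertical axis, %) in the promoter peaks of the 20S core, the 19S cap and all member genes, by age. Points are libraries, black lines the mean of 2, and the dotted line is the share of promoter peaks these are by number; the 20S core is lowest at P10 (0.191 and 0.183%) and highest at P28 (0.300 and 0.309%).

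Over all 114 peaks, the shares called were below or near those over all peaks. From P2 to P4, 0 peaks were called in either direction, against 0.0% of all peaks, and 3 had an unadjusted p under 0.05 (1365 over all peaks). From P4 to P10, 8 peaks rose (7.02%) and 0 fell, against 15.6% higher and 1.51% lower over all peaks. From P10 to P28, 2 rose (1.75%) and 14 fell (12.3%), against 1.29% and 20.7%. From P2 to P28, 4 rose (3.51%) and 0 fell, against 9.64% and 3.0%. The median changes were 0.39, 0.64, -0.46 and 0.56, against 0.48, 0.73, -0.69 and 0.57 over all peaks.

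Position moved with these counts. Over all promoter peaks, 7.72% rose from P4 to P10 and 8.95% fell from P10 to P28, while beyond 1 kb 26.0% rose and 36.0% fell. Of the 87 member promoter peaks 4 rose in the first step and 7 fell in the second, and of the 27 beyond 1 kb 4 rose and 7 fell. All 4 member peaks that rose from P2 to P28 were beyond 1 kb, where 12% of all peaks rose in that comparison, against 7.83% of all promoter peaks. The part of position in these counts was not tested further. After centring, 0 members were called from P4 to P10, 3 rose and 6 fell from P10 to P28, and 1 rose and 3 fell from P2 to P28, against 2.88% higher and 3.26% lower, 4.28% and 8.56%, and 3.27% and 7.26% of all peaks.

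**Figure D4:**
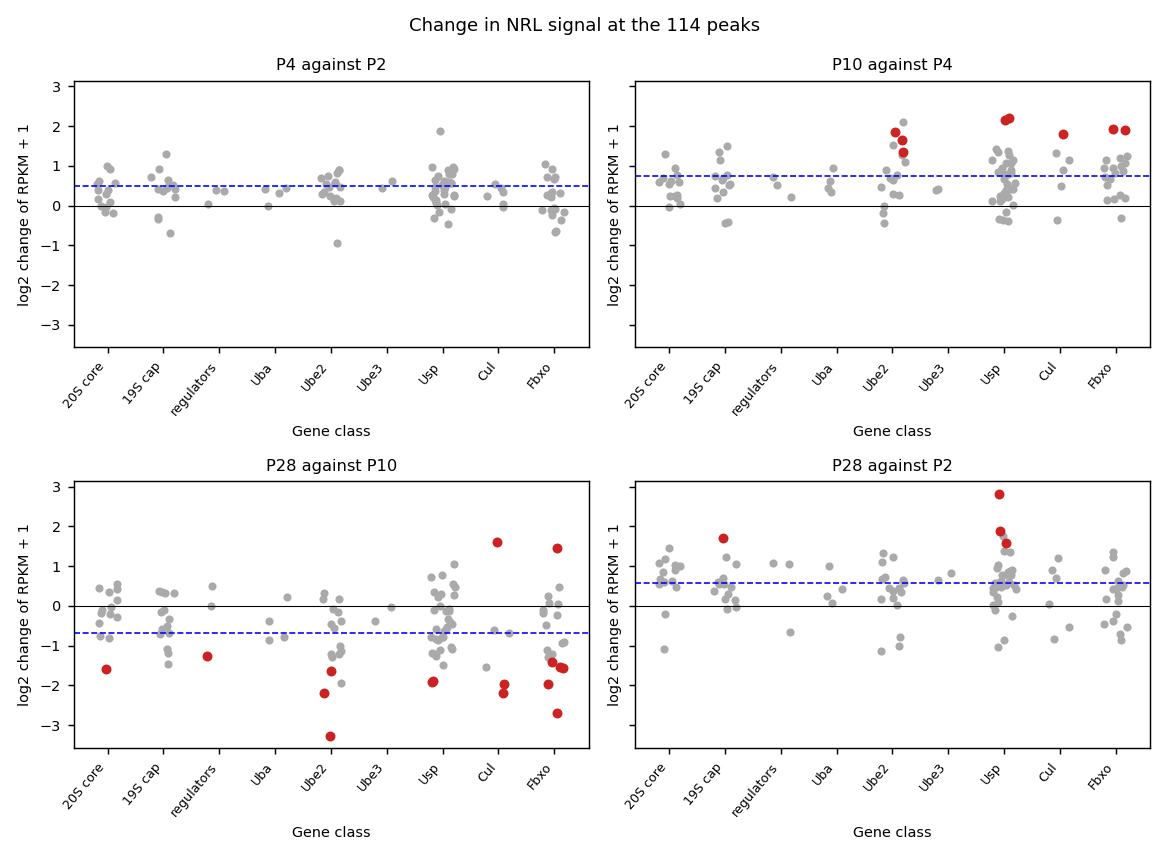
Change in NRL signal, log2 of RPKM + 1 (vertical axis), at each of the 114 peaks by gene class (horizontal axis) for the 4 comparisons. Red points passed the test, grey points did not, and the blue dashed line is the median over all 8996 peaks (0.48, 0.73, -0.69 and 0.57); most members lie around that line.

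Peaks of the Uba class gave no call. Uba1, the main E1 for ubiquitin, had a mean of 4.28 RPKM, Uba6, the other ubiquitin E1, 4.02 and Uba3 3.18, all with the peak over the start. From P10 to P28 the changes of Uba1 and Uba6 were -0.86 ± 0.52 and -0.77 ± 0.50, near the median of all peaks.

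Among the conjugating enzymes, Ube2s, which extends chains for the anaphase-promoting complex, had the highest mean (13.9 RPKM), and Ube2cbp had 6.53. Ube2j1, an E2 of the endoplasmic reticulum that serves in the disposal of misfolded secretory proteins, had the sharpest course. Its intronic peak at chr4:33047749-33047895 had 1.71 and 3.88 RPKM in the P2 libraries, 3.46 and 5.83 in those of P4, 18.2 and 14.4 in those of P10 and 0 and 2.23 in those of P28. The P10 libraries are far above all others and the P28 libraries include the lowest. The rise from P4 to P10 was 1.64 ± 0.55 (adjusted p = 0.0403) and ended with centring (0.340), without P4 replicate 3 (0.307), without P10 replicate 1 (0.221) and without P10 replicate 4 (0.118). The fall to P28 was -3.26 ± 0.55 (adjusted p = 0.000495), also after centring (0.00836) and without each of the 8 libraries in turn (highest 0.0117). It rests on 34 reads at P10 and 2 at P28, which makes the signal 14.9-fold lower in scaled reads (exact 95% interval 3.81 to 128, counting error only).

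Ube2v1, a variant E2 without catalytic cysteine that works with Ube2n, had an exonic peak at chr2:167617524-167617826. It went from 8.84 and 7.82 RPKM at P10 to 0 and 3.24 at P28 (-2.18 ± 0.58, adjusted p = 0.0114). The libraries of the 2 ages do not overlap, which was a condition of naming this fall. The call ended with centring (0.0747). It also ended without P28 replicate 3 (change -1.14), P10 replicate 1 (-2.10) or P10 replicate 4 (-2.26). Ube2s, named by its level, went from 33.6 and 25.0 to 9.35 and 8.03 at its start (-1.63 ± 0.54, adjusted p = 0.0325; 0.0837 centred). That call ended without any of the 4 P10 and P28 libraries (0.128 to 0.273).

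Ube2cbp, which encodes an E2-binding protein, had a peak in its intron, 141503 bp from the start, that went from 1.59 and 5.95 RPKM at P4 to 9.85 and 20.3 at P10 (1.84 ± 0.57, adjusted p = 0.0296). The call ended with centring (0.206), without P4 replicate 3 (0.336), without P10 replicate 1 (0.0648) and without P10 replicate 4 (0.254). A weak intergenic peak 270.751 kb from Ube2e3 went from 0.804 and 0 to 2.99 and 1.97 (1.36 ± 0.46, adjusted p = 0.0425). It had 2 reads at P4 and 11 at P10, a ratio of 5.70 (interval 1.24 to 52.9). Its call ended with centring (0.529) and without any of the 4 P4 and P10 libraries (0.0882 to 0.317). The ligases Ube3a, whose loss causes Angelman syndrome, and Ube3c had means of 2.72 and 3.89 RPKM at their starts and gave no call.

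Among the Usp genes the highest means were at Usp6nl (19.1 RPKM), Usp22, the deubiquitinase of the SAGA coactivator (9.06), and Usp49 (7.65). The Usp6nl peak at chr2:6383945-6384062, in its intron, had 4.27 and 1.61 RPKM in the P2 libraries, 7.53 and 20.6 in those of P4, 32.0 and 36.0 in those of P10 and 28.9 and 22.2 in those of P28. The P10 and P28 libraries are above all P2 and P4 libraries. The rise from P2 to P28 was 2.83 ± 0.57 (adjusted p = 0.00249), also after centring (0.0032) and without each of the 8 libraries in turn (highest 0.0461). It ended with the values as deposited (1.33, adjusted p = 0.29). A further intronic Usp6nl peak, at chr2:6379535-6380039, had a mean of 2.93 and gave no call.

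Usp34, a large deubiquitinase known for acting on axin in Wnt signalling, had 2 peaks that rose from P4 to P10. The peak 0.771 kb upstream of the start, at chr11:23305884-23306124, went from 2.11 and 0.593 RPKM to 11.8 and 7.25 (2.21 ± 0.49, adjusted p = 0.00485). The intronic peak at chr11:23335823-23336003 went from 2.81 and 3.94 to 19.2 and 17.2 (2.14 ± 0.52, adjusted p = 0.00805), and then to 5.99 and 2.71 at P28 (-1.91 ± 0.52, adjusted p = 0.0117). In each step the libraries of the 2 ages do not overlap, which for the fall was a condition of naming it. Both rises ended with centring (0.113 and 0.0502), while the fall did not (0.0468). The upstream call ended without P10 replicate 1 (0.0882). The intronic rise ended without P4 replicate 3 (0.0677), P10 replicate 1 (0.0886) or P10 replicate 4 (0.058), and the fall without P10 replicate 1 (0.105), P10 replicate 4 (0.0707) or P28 replicate 4 (0.177).

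Usp12 and Usp3 rose from P2 to P28 at peaks found in the P28 list alone. That favours high P28 values, so these rises are not independent of how the peaks were found. The Usp12 intronic peak had 1.29 and 0.971 RPKM at P2 and 5.53 and 8.35 at P28 (1.88 ± 0.51, adjusted p = 0.0184), from 3 and 17 reads (5.95-fold, interval 1.72 to 31.7). It ended with centring (0.208), without P2 replicate 4 (0.0579) and without P28 replicate 4 (0.0697). The intergenic peak 18.678 kb from Usp3, a histone H2A deubiquitinase, had 0 and 1.36 at P2 and 4.43 and 2.92 at P28 (1.59 ± 0.50, adjusted p = 0.0387), from 2 and 13 reads (6.83-fold, interval 1.55 to 62.3). It ended with centring (0.329), without P2 replicate 3 (0.264), P28 replicate 3 (0.15), P10 replicate 1 (0.058) or P10 replicate 4 (0.0603). Neither pair of ages overlaps.

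Among the cullins, Cul5, the scaffold of the SOCS-box ligases, had the highest mean (11.1 RPKM), then Cul4a (8.94) and Cul3 (4.46). The Cul5 peak at chr9:53667429-53667745, over the start printed above, had 3.58 and 5.40 RPKM in the P2 libraries, 3.2 and 11.7 in those of P4, 23.9 and 25.2 in those of P10 and 6.84 and 8.78 in those of P28. The P10 libraries stand clear of all others. The rise from P4 was 1.80 ± 0.57 (adjusted p = 0.0323), and it ended with centring (0.14), without P4 replicate 3 (0.213), and without P10 replicate 1 or P10 replicate 4 (0.177 each). Its change from P10 to P28 did not pass (-1.54 ± 0.57, adjusted p = 0.0535), but passed without either P4 library (0.00737 and 0.00755).

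Cul4a, the scaffold of DNA-repair and chromatin ligases, had 13.5 and 19.9 RPKM at P10 and 4.12 and 2.91 at P28 (-1.96 ± 0.57, adjusted p = 0.0177; 0.0499 centred). The peak is 324 bp into the gene, with Pcid2 starting near by, and the call ended without P10 replicate 1 (0.0755), P10 replicate 4 (0.158) or P28 replicate 4 (0.113). Its paralog Cul4b, whose call was outside the naming rule and is given after its values were seen, went from 6.21 and 9.49 to 0.873 and 0.922 (-2.20 ± 0.54, adjusted p = 0.00668; 0.0435 centred). The Cul4b call ended without P10 replicate 4 (0.0728). Both Cul4 genes fell at the start region. Cul2, the scaffold of the VHL ligase, went the other way, from 0.987 and 0.521 at P10 to 4.53 and 4.10 at P28 (1.61 ± 0.45, adjusted p = 0.0145; 0.00703 centred). The P28 libraries are above all 6 others, at a peak found in the P28 list alone, which favours high P28 values. This call ended without P10 replicate 1 (0.0771), P10 replicate 4 (0.151) or P28 replicate 3 (0.064).

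Among the F-box genes, a peak of Fbxo2 had the highest mean of all members (24.7 RPKM). The Fbxo2 product recognises glycoproteins with high-mannose sugars and is known from neurons. The peak at chr4:148171359-148171762, 10738 bp from the start and intergenic, had 11.8 and 9.42 RPKM in the P2 libraries, 15.4 and 33.6 in those of P4, 59.3 and 52.5 in those of P10 and 8.43 and 7.29 in those of P28. The P10 libraries are the highest and the P28 libraries the lowest. The fall from P10 to P28 was -2.68 ± 0.55 (adjusted p = 0.00167), on 322 and 40 reads, and it held centred (0.00382), without each library in turn (highest 0.0433) and in all 18 settings tried. A neighbouring peak at chr4:148168359-148168516 had 23.9 and 21.3 at P10 and 4.90 and 16.6 at P28, and did not pass (-1.21 ± 0.58, adjusted p = 0.131). Fbxo38, next in level (9.96), was at 14.7 and 12 at P28 against 10.3 and 8.40 at P10 and gave no call.

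Fbxo27, which encodes a close relative of Fbxo2 that also binds glycoproteins, rose at both of its peaks from P4 to P10. The peak over the start printed above went from 1.93 and 1.30 RPKM to 11 and 6.83 (1.9 ± 0.47, adjusted p = 0.00899). The peak at chr7:28693540-28693976, 43 bp upstream of another start of the gene, had 3.46 and 1.74 in the P2 libraries, 3.78 and 8.17 in those of P4, 26.3 and 22.3 in those of P10 and 5.32 and 5.62 in those of P28. At both peaks the P10 libraries are above all others. The second peak's rise was 1.93 ± 0.54 (adjusted p = 0.0172) and its fall to P28 -1.96 ± 0.54 (adjusted p = 0.0119). Centred, the rises did not pass (0.131 and 0.07) and the fall did (0.0323). The first rise ended without P4 replicate 3 (0.0545) or P10 replicate 1 (0.141). The second ended without P4 replicate 3 (0.108), P10 replicate 1 (0.157) or P10 replicate 4 (0.0917), and the fall ended without any of the 4 P10 and P28 libraries (0.0582 to 0.123).

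Fbxo28 rose from P10 to P28 at its start, from 0.856 and 1.36 RPKM to 5.05 and 4.45 (1.46 ± 0.52, adjusted p = 0.0465; 0.041 centred), on 3 and 11 reads (4.19-fold, interval 1.11 to 23.4). Its P2 libraries, at 1.37 and 6.20, span the values of the other ages, and the call ended without any 1 of the 6 P4, P10 and P28 libraries (0.0515 to 0.25). The Fbxo28 peak too was found in the P28 list alone, which favours high P28 values. Besides Cul4b, Ube2s, Psmb7 and Psme2, the other members that fell from P10 to P28 were Usp49 (-1.88), Fbxo46 (-1.57), Fbxo34 (-1.54) and the first Fbxo27 peak (-1.41), given here after their values were seen. None of these 4 passed after centring (0.0639 to 0.234), or without any 1 of the 4 P10 and P28 libraries (0.0591 to 0.292).

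**Figure D5:**
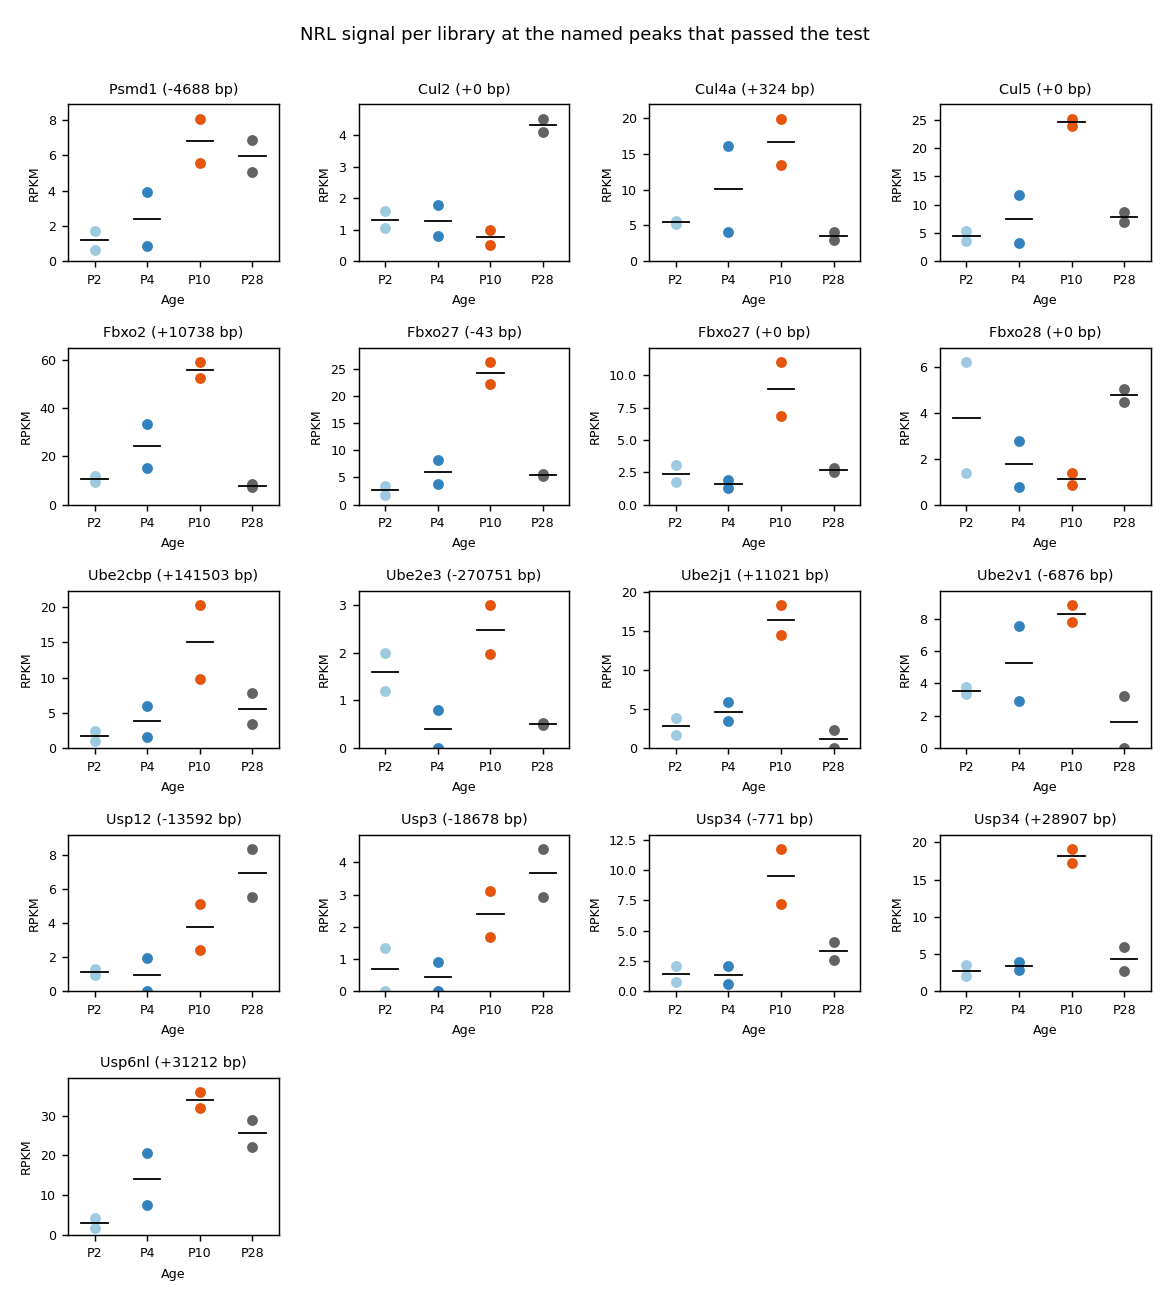
RPKM per library (vertical axis, from 0, scaled per panel) by age at the 17 named peaks that passed the test in at least 1 comparison, with the distance to the start in each title. Points are libraries and black lines the mean of 2; Fbxo2, Fbxo27, Cul5, Usp34 and Ube2j1 are highest at P10, while Cul2, Usp12 and Usp3 are highest at P28.

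Other genes of the pathway were taken from 7 lists of 148 genes, of which 84 had a peak within 50 kb, 67 of them a promoter peak. With 1 peak per gene, 0 were called from P2 to P4, 10 rose and 1 fell from P4 to P10, 0 rose and 12 fell from P10 to P28, and 9 rose and 0 fell from P2 to P28. Over all peaks the shares were 15.6% higher and 1.51% lower, 1.29% and 20.7%, and 9.64% and 3.0%. Centred, the calls were 1 higher and 1 lower, 3 and 3, and 4 and 2. In the list of cullin ligase adaptors and RING subunits, NEDD8 and COP9 signalosome genes, 5 of 21 (23.8%, against 15.6% of all peaks) rose from P4 to P10. After centring, 1 of the 21 rose. Klhl12 was lowest in adjusted p (3.02 ± 0.54, adjusted p = 0.00147, and 0.0212 centred). The Klhl12 peak lies upstream of the start, at -15658 bp. It had 2 reads at P4 and 36 at P10, a ratio of 18.6 (interval 4.8 to 160). In the same list 4 of 21 (19%, against 20.7%) fell from P10 to P28, led by Rbx1, the RING subunit of most cullin ligases, which had a mean of 32.5 RPKM at P10 and 2.79 at P28 (-3.42 ± 0.63, adjusted p = 0.00101). The Rbx1 call held centred and without each library in turn (highest 0.0153). Otud7b, a deubiquitinase outside the Usp family, had its peak upstream of the start, at -9974 bp. The peak rose from 10.5 ± 5.4 to 38.6 ± 1.4 RPKM (SD of 2 libraries; 1.86 ± 0.54 SE, adjusted p = 0.0212). It then fell to 4.41 ± 0.74 (-2.88 ± 0.54, adjusted p = 0.000971). The rise ended with centring (0.0713), without P4 replicate 3 (0.0912), P10 replicate 1 (0.168) or P10 replicate 4 (0.13), and the fall did not end with any of these. In that list only Tnfaip3 was called from P2 to P28 (1 of 15, 6.67%, against 9.64% higher over all peaks). Its rise was 2.09 ± 0.49 (adjusted p = 0.00733), on 3 and 18 reads (6.3-fold, interval 1.84 to 33.4). Its call ended with centring (0.0536) and without P2 replicate 4 (0.146).

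Sem1, a small subunit of the 19S cap whose symbol lies outside the Psm series, rose from P2 to P28 at its start (2.42 ± 0.46, adjusted p = 0.00139; 0.014 centred), on 2 and 23 reads (12.1-fold, interval 2.98 to 106). The Sem1 call held without each library in turn (highest 0.0215). In its list of maturation and shuttle factors Sem1 was the 1 of 9 that rose from P2 to P28 (11.1%, against 9.64% of all peaks). Ddi2, a protease known for activating the proteasome factor Nfe2l1, was the 1 that fell from P10 to P28 (11.1%, against 20.7%). Its peak, 17646 bp from the start, changed by -1.84 ± 0.57 (adjusted p = 0.0233). The Ddi2 call ended with centring (0.0584) and without any of the 4 P10 and P28 libraries (0.0719 to 0.172). Of 4 ubiquitin genes only 1 was called, Rps27a (25%, against 15.6% of all peaks), which encodes ubiquitin fused to a ribosomal protein. Its rise from P4 to P10 was 1.65 ± 0.51 (adjusted p = 0.0303). It ended with centring (0.212), without P4 replicate 3 (0.311), P10 replicate 1 (0.192) or P10 replicate 4 (0.114). Of 7 p97 genes, 2 (28.6%, against 20.7% of all peaks) fell from P10 to P28, led by Ube4b (-1.69 ± 0.54, adjusted p = 0.0273), a call that ended with centring (0.0752) and without any of the 4 P10 and P28 libraries (0.114 to 0.168). Of 9 genes of the anaphase-promoting complex only Anapc16 was called (11.1%, against 15.6% and 9.64% of all peaks), at a peak 2359 bp from its start. It was higher at P10 than P4 (2.24 ± 0.45, adjusted p = 0.00256) and higher at P28 than P2 (1.80 ± 0.45, adjusted p = 0.0113). It had 1 read in the P2 libraries, 8 in those of P4, 73 in those of P10 and 25 in those of P28, so the ratio of P28 to P2 is 26.3 with an interval of 4.3 to 1078. Both Anapc16 calls ended with centring (0.0525 and 0.0981), the first also without P10 replicate 1 (0.0877) and the second without P28 replicate 4 (0.0507). Of 19 other ligases, Nedd4 led the 3 (15.8%, against 20.7% of all peaks) that fell from P10 to P28 (-2.04 ± 0.46, adjusted p = 0.00342; 0.0289 centred), on 32 and 3 reads (9.33-fold lower, interval 2.92 to 47.6). From P4 to P10, 1 of these 19 rose, Siah1a (5.26%, against 15.6% of all peaks). Herc1 was the 1 that fell (5.26%, against 1.51%), by -1.39 ± 0.47 (adjusted p = 0.0431, and 0.0182 centred), on 12 and 3 reads. From P2 to P28, 3 rose (15.8%, against 9.64%), led by Siah1a, and 0 fell. Centred, 2 rose and 2 fell. Siah1a had 0 reads in the P2 libraries, 3 in those of P4, 12 in those of P10 and 12 in those of P28. The Siah1a peak lies far upstream of the start, at -45742 bp. Against a floor of 3 reads over both P2 libraries, P28 was at least 4.2-fold higher (adjusted p = 0.000369; 0.0031 centred). The rise from P4 to P10 was 4.14-fold (interval 1.12 to 22.9, adjusted p = 0.0286) and ended with centring (0.299), without P4 replicate 3 (0.227), P10 replicate 1 (0.293) or P10 replicate 4 (0.0754).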

How the data were processed

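MACS2 2.2.5, bedtools 2.29.0, Bowtie2 2.3.5.1, Trimmomatic 0.38, Picard 2.20.8 and SAMtools 1.9, with the builds GRCm38.p6 and ASM584v2 are named, without role or order, per the submitters' processing notes. The table of 8996 peaks deposited by the authors holds RPKM, as its values show. Each value is a whole number of reads divided by a width and a library scale (100% whole within 0.001), but each further column was divided by the width belonging to a row 39 places before. RPKM was rebuilt from the reads with each peak's own width; 39 widths of the vector of 9035 belong to no row and were inferred, which touches 5 member values. The way the authors set the scale is not given in the sources used. Each age's list gives a peak signal and a score from the authors' own steps; only the signal was used, to rank peaks within a list. Per-sample columns without a labelled sample numbered 0.

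The test was limma 3.58.1 (R 4.3.3) on log2(RPKM + 1) with trend and robust settings; age was the factor over all 8 libraries, which left 4 residual degrees of freedom. No filter was set, and the log scale understates changes of weak peaks. The design was written for a possible 15 libraries. Ratios from few reads have exact 95% intervals, which cover counting error only. Gene identifiers of 8995 peaks matched RefSeq (GRCm38.p6), the source of the promoter sequences. Named were every proteasome gene, called members where 12 or fewer were called in a direction and otherwise the 6 largest changes among those with libraries that did not overlap and mean RPKM at or above the median, the 3 highest peaks of each class, and the lowest adjusted p of each other list. Some values that this rule names are not reported here. The members, lists and rules were chosen with earlier results of these data known. The script was tested on simulated data. Python 3.11.15, pandas 2.3.3, NumPy 2.4.6, SciPy 1.17.1 and Matplotlib 3.10.9 were used.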

Additional observations from a re-analysis of the deposited data

How the results depend on the processing

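The fall of the first Fbxo27 peak from P10 to P28 became 0.0089 with values as deposited, the single reversal. Of the 20 named calls, 3 (the falls of Ube2j1 and Fbxo2 and the rise of Usp6nl) were kept in all leave-one-out fits, and over all alternatives the 20 calls passed in 217 of 347 fits. The other 8 member calls passed in 76 of 140 fits, each lost without at least 1 library, and the 15 named calls of other lists in 204 of 263. Counts of called members moved with most settings; the cause was not tested. From P4 to P10 the 8 became 0 with centring on the median, 1 with centring on promoter peaks (added after seeing the data), 0 with pseudocount 0.1, 23 with pseudocount 5, 5 with values as deposited, 16 with limma-voom on reads, and 0 to 29 leaving out a library (0 without P10 replicate 1, 29 without P4 replicate 4). From P10 to P28 the 16 became 9, 10 with promoter centring, 1 with pseudocount 0.1, 29 with pseudocount 5, 8 as deposited, 30 with 2 ages only in the fit, and 3 to 26 leaving out a library (3 without either P10 library, 26 without either P4 library). From P2 to P28 the 4 became 1 with pseudocount 0.1, 8 with pseudocount 5, 0 as deposited, and 2 to 9 leaving out a library (2 without P2 replicate 4, 9 without either P4 library). From P2 to P4 the 0 became 1 without P2 replicate 3 and 3 without P4 replicate 3, so leave-one-out gave 0 to 3. With the replicate block, the counts were 0 from P4 to P10 and 2 from P10 to P28. The differences between the 2 libraries of an age correlated between ages at -0.013 to 0.085. Where ages shared both replicate numbers, the correlations were 0.029 to 0.085. With few reads per peak, these values cannot tell whether replicate numbers pair the libraries. With the 1221 strongest peaks of each list, genes with a peak numbered 16, 12 and 16 at P4, P10 and P28. Low read numbers limit single peaks: 3 reads on a peak of median width are worth 1.16 to 1.77 RPKM.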
